A study of Mus musculus with 64 samples.

Results

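The 7 sirtuin genes (Sirt1 to Sirt7) and the 3 genes for NAD glycohydrolases (Cd38, Bst1 and Sarm1) were taken by name from a count table of 52636 genes. All 10 were in the table and all 10 were among the 20249 genes that passed the filter on low counts. The table came from RNA-seq of 2 fat depots, brown adipose tissue (BAT) and the white fat of the epididymis (eWAT), of male mice aged 2 to 4 months, kept on chow at room temperature. FANKO mice carry the floxed NamptTM1Jtree allele, in which exon 3 of Nampt is flanked by loxP sites, together with Adiponectin-Cre. WT mice are littermates of the same floxed line without Cre. Tissue was taken at zeitgeber time (ZT) 6, 10, 18 and 22, where ZT0 is the start of the light phase, with 4 samples per depot, genotype and time, which gives 16 libraries per depot and genotype and 64 in all. Adiponectin-Cre acts in adipocytes, so that macrophages, endothelial cells and the other cells of both depots keep the intact gene. The comparisons ask how the genes for NAD+ consuming enzymes differ between depots, genotypes and times of day when the main NAD+ salvage enzyme of the adipocyte is removed.

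Sirtuins use NAD+ as a co-substrate to take acetyl and other acyl groups off lysines, and release nicotinamide, which NAMPT turns back toward NAD+. SIRT1, SIRT6 and SIRT7 are found mainly in the nucleus and SIRT2 mainly in the cytosol, while SIRT3, SIRT4 and SIRT5 work in mitochondria, an organelle that fills the brown adipocyte. CD38 and its paralog BST1 (CD157) are membrane enzymes that split NAD+ and make ADP-ribose and cyclic ADP-ribose, and both are well known from the surface of immune cells. SARM1 is an NAD+ hydrolase best known from the axon, where its activation drives degeneration.

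The members lie on 5 chromosomes of GRCm38. Among the sirtuins, Sirt1 (ENSMUSG00000020063) is at chr10:63319005-63381704 and Sirt6 (ENSMUSG00000034748) at chr10:81621785-81627797, Sirt2 (ENSMUSG00000015149) is at chr7:28766735-28788661 and Sirt3 (ENSMUSG00000025486) at chr7:140863666-140882309. Sirt4 (ENSMUSG00000029524) is at chr5:115478010-115484725, Sirt5 (ENSMUSG00000054021) at chr13:43365496-43395203 and Sirt7 (ENSMUSG00000025138) at chr11:120618372-120625240. Bst1 (ENSMUSG00000029082, chr5:43818885-43843986) and Cd38 (ENSMUSG00000029084, chr5:43868553-43912375) are neighbours on the plus strand, and Sarm1 (ENSMUSG00000050132) is at chr11:78472330-78497754. Counts are over exons. Some exons are shared with other genes, which covers 7.0% and 5.7% of the exonic bases of Sirt3 (Ric8a and Psmd13, both on the opposite strand), 3.0% of Bst1 (Fbxl5, opposite strand) and 2.4% of Sirt7 (Mafg, same strand), and whether counting used the strand is not given in the sources used here.

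RefSeq promoter windows, from 250 bases before to 50 after a start site on GRCm38.p6, matched 9 of the 10 members in 11 windows, Bst1 being the exception. They were searched on both strands for letters bound by clock and metabolic factors, namely CACGTG (E-box, bound by CLOCK:BMAL1), TTATGTAA (D-box), TNAAGGTCA (estrogen-related receptor half-site), CCGGAAG (ETS) and TGACGTCA (cAMP response element), and for the ROR or REV-ERB element and the NRF1 site. The E-box occurs in 7.15% of 32817 promoter windows, and among the members it was found in Sirt1 and in no other window. The Sirt1 window holds 2 of them. The ROR element, present in 0.603% of all windows, was found in Sirt5, and the ETS letters, present in 8.86%, in Sirt3, Sirt6 and Sirt7. The NRF1 letters (6.22% of all windows) were found in Sirt6, and the D-box (0.935%), the estrogen-related receptor half-site (1.28%) and the cAMP response element (1.79%) in none of the 11. A match is a description of letters and not of binding. The stretches outside exons are printed for Sirt1, the sirtuin that acts on clock proteins, for Sirt5, and for Sirt6, the member whose level varied with time of day in WT BAT. They run 5′ to 3′ on the strand of the gene, with motif matches in capitals (both E-boxes of Sirt1, and the ROR element of Sirt5, whose match is on the opposite strand). The Sirt6 stretch is from its downstream window (chr10:81627273-81627572). Both it and the Sirt1 stretch lie within the annotated span of their genes, and the Sirt5 stretch does not. The NRF1 and ETS matches of Sirt6 are in its other window (chr10:81627517-81627816), so the printed stretch holds no match.

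Sirt1, chr10:63339051-63339285, minus strand, bases -250 to -16: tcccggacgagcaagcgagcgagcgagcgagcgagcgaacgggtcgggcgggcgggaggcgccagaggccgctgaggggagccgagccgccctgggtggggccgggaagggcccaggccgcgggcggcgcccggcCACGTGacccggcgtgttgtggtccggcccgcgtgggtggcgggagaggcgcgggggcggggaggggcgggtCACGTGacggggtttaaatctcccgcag
Sirt5, chr13:43365285-43365495, plus strand, bases -250 to -40: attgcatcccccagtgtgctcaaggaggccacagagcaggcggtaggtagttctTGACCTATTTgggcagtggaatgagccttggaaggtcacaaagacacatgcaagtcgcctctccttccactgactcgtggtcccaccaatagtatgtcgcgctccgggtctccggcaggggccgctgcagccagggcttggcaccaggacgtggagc
Sirt6, chr10:81627321-81627471, minus strand, bases -149 to 2: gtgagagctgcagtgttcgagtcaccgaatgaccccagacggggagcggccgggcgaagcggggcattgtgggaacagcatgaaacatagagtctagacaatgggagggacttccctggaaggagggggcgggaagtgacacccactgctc

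Counts per library summed to between 6117343 and 30544847 (median 15826651), and the deposited table holds no pair of identical libraries. Levels are counts scaled to library size (CPM) with TMM, a factor that sets most genes equal between libraries. Nampt itself had a median of 701.8 CPM in WT BAT and 143.4 CPM in FANKO BAT, without overlap of the 16 and 16 libraries, and of 149.5 and 114.4 CPM in WT and FANKO eWAT, where the ranges overlapped (111.5 to 309.7 and 100.7 to 131.0 CPM). The depots matched their labels, in that the 6 brown adipocyte markers summed to 4942 to 10872 CPM in WT BAT and 12.2 to 36.7 CPM in WT eWAT. The median share of counts on mitochondrial genome genes was 24.6% for WT BAT and 14.7% for FANKO BAT, and 6.55% and 10.7% for the same genotypes in eWAT. Markers of skeletal muscle varied between BAT libraries from 0.634 to 431.6 CPM, and results that rest on the 7 BAT libraries above 150 CPM are also given without them.

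Per kilobase of exon, the order of the 10 genes differed between conditions. In WT BAT, Sirt3 and Sirt2 had the highest levels, at 11.98 ± 1.09 and 11.6 ± 0.826 CPM per kb (SD, n = 16), a gap smaller than their spread. Sirt5 followed at 5.81 ± 0.865 and Sirt1 at 5.26 ± 0.846 CPM per kb, again within their spread of each other, and then Sirt4 (3.84), Sirt7 (3.19), Cd38 (2.53) and Sirt6 (2.47 CPM per kb), the last pair within their spread. Bst1 and Sarm1 were close to the limit of detection, at 0.0964 and 0.0616 CPM per kb.

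In FANKO BAT Sirt2 stood alone at the top with 7.98 ± 0.709 CPM per kb. Sirt7 (4.91), Sirt1 (4.74) and Sirt3 (4.10 CPM per kb) followed, with steps within the spread, and Bst1 had come up to 1.28 ± 0.348 CPM per kb, above Sarm1 at 0.115. In WT eWAT Sirt2 (7.15 CPM per kb) led as well, followed by Cd38 (4.56), Sirt1 (4.48) and Sirt7 (4.11), which did not differ beyond their spread from neighbour to neighbour, and Sirt3 was in place 8 of 10 at 1.79 ± 0.217 CPM per kb. FANKO eWAT had the same leading gene and the same lowest pair. Of the summed sirtuin level per kb, Sirt3 made up 27.1% in BAT of WT mice and 13.8% in BAT of FANKO mice, against 7.50% and 5.92% in their eWAT, whereas the share of Sirt2 stayed between 26.4% and 32.3%.

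**Figure D1:**
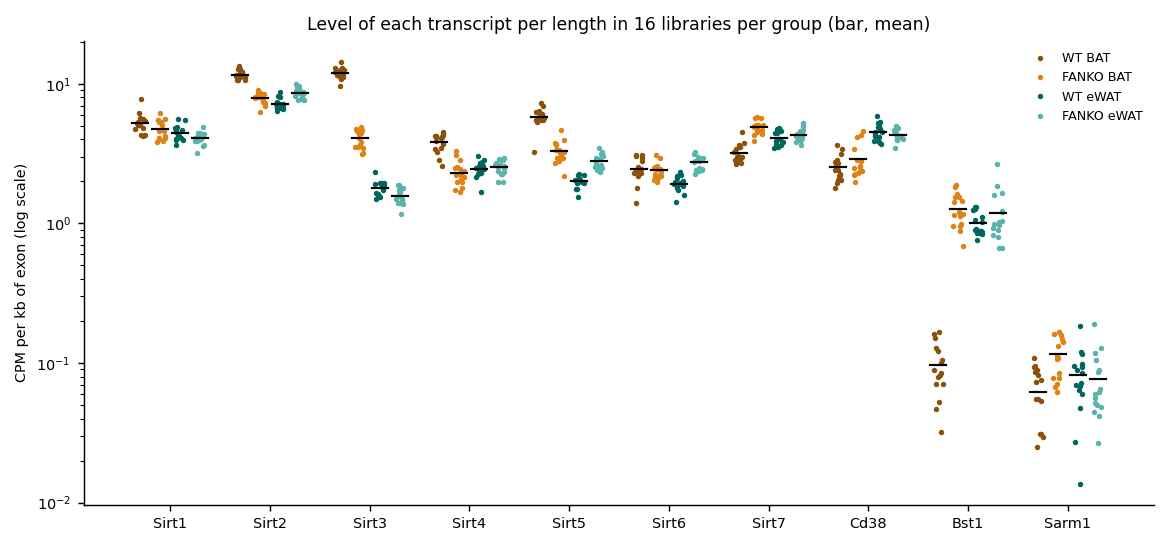
Levels of the 10 members per kilobase of exon (CPM per kb, log axis) in each of the 4 conditions, with a point per library and the mean of 16 libraries. Sirt3 lies beside Sirt2 at the top in WT BAT (11.98 and 11.6 CPM per kb) and in place 8 in WT eWAT (1.79), Bst1 is near Sarm1 in WT BAT (0.0964 and 0.0616), and the single Sarm1 library with a count of 0 is not drawn on the log axis.

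In BAT, loss of adipocyte Nampt went with lower transcript levels of all 3 mitochondrial sirtuins and Sirt2, higher levels of Sirt7, and a 13.2-fold higher mean level of Bst1. Of the 10 members 7 passed the test at a false discovery rate of 0.01 (edgeR quasi-likelihood test, adjusted over all genes), 3 higher and 4 lower in FANKO BAT. Among all genes tested 67.0% passed (33.1% higher and 33.9% lower), so a share of 7 in 10 is near the background. The median log2 difference was -0.10 over the members and 9.7e-05 over all genes. Without the 7 BAT libraries with most muscle marker counts the number was 6, and it ranged from 6 to 8 over all alternatives.

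Sirt3, the main deacetylase of the mitochondrial matrix, was between 57.7 and 86.0 CPM in WT BAT (median 71.0) and between 18.9 and 29.4 CPM in FANKO BAT (median 25.2). All 16 FANKO libraries lay below all 16 WT libraries, and Sirt2 and Bst1 did not overlap either, 3 of 10 members against 22.6% of all genes. The log2 difference was -1.55 ± 0.06 (SE, n = 16 and 16, adjusted p = 1.99e-31), or 2.92-fold lower. At ZT6, ZT10, ZT18 and ZT22 the differences were -1.62, -1.58, -1.49 and -1.49, each past the threshold, and over 18 alternative settings the mean difference ranged from -1.59 to -0.97 and stayed past it.

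Sirt5, which removes succinyl, malonyl and glutaryl groups, had a median of 35.2 CPM in WT BAT (19.7 to 44.3) and of 19.7 CPM in FANKO BAT (13.4 to 28.5), and 8 FANKO libraries lay below the lowest WT library. Its log2 difference was -0.82 ± 0.07 (adjusted p = 5.76e-16). The lowest WT value is that of replicate 4 at ZT18, which also had the highest muscle marker sum of BAT (431.6 CPM), and the other WT libraries of that time were at 33.8 to 36.6 CPM. Sirt4, known for lipoamidase and ADP-ribosyltransferase activity, had a median of 9.89 CPM in WT BAT (6.19 to 10.9) and of 5.32 CPM in FANKO BAT (4.01 to 7.88), with 13 of 16 FANKO libraries below the WT range. Its log2 difference was -0.73 ± 0.08 (adjusted p = 2.14e-12), but it fell short of the threshold when libraries were scaled by size alone (-0.14, adjusted p = 0.102). Under that scaling the median of all genes was 0.58 higher in FANKO BAT, and 84.9% of calls were higher against 49.4% under TMM, so the differences in this comparison are relative to most genes and not absolute.

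The mitochondrial sirtuins, like Sirt2, were lower in FANKO BAT, and so were adipocyte markers. All 6 adipocyte markers were lower in FANKO BAT, with sums of 11643 to 15323 CPM in WT (median 13624) and 5261 to 9280 CPM in FANKO (median 7355), and 3 of 6 brown adipocyte markers were lower, with sums of 4942 to 10872 CPM in WT and 1312 to 3606 CPM in FANKO. None of these markers was at 0 in all libraries of a genotype. Relative to the adipocyte sum, Sirt3 was at 4.52 to 7.39 per 1000 in WT BAT and 2.62 to 4.39 per 1000 in FANKO BAT, without overlap, and the WT median was 1.64 times the FANKO median. Relative to the brown adipocyte sum the ranges overlapped (6.69 to 13.1 and 6.39 to 14.6 per 1000). For Sirt5 the medians relative to the adipocyte sum were 2.63 in WT and 2.68 per 1000 in FANKO, and for Sirt4 they were 0.686 and 0.766. In bulk tissue, fewer cells of a type and less RNA per cell cannot be told apart, and the part of cell makeup in these differences was not tested.

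**Figure D2:**
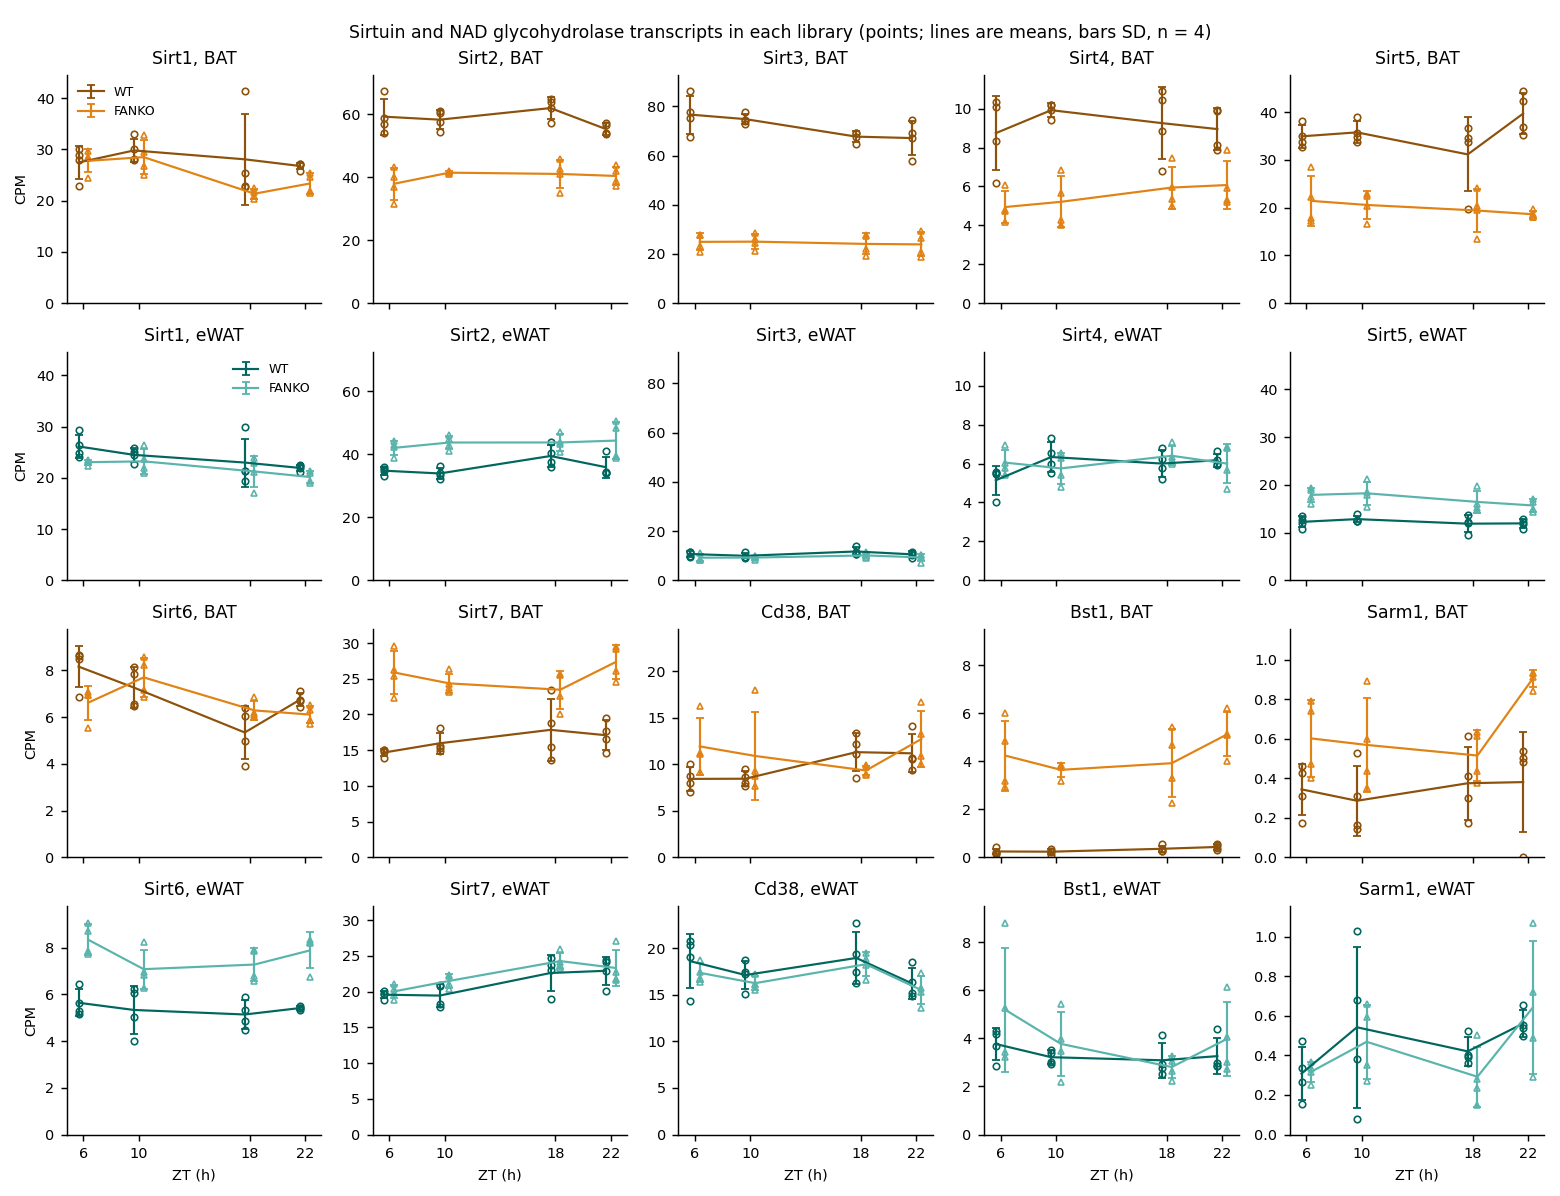
Levels of the 10 members (CPM) at ZT6, ZT10, ZT18 and ZT22 in BAT and eWAT, with a point per library (n = 4 per genotype and time) lines through the means and bars of 1 SD. Sirt3 in BAT is apart between genotypes at every time (57.7 to 86.0 CPM in WT, 18.9 to 29.4 in FANKO), Bst1 in BAT is apart in the opposite direction (0.106 to 0.551 in WT, 2.27 to 6.24 in FANKO), and in WT BAT Sirt6 is lowest at ZT18.

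Of the sirtuins outside mitochondria, Sirt2, a deacetylase of tubulin and other cytosolic proteins, had a median of 57.3 CPM in WT BAT (53.5 to 67.2) and of 41.1 CPM in FANKO BAT (31.4 to 45.6). The genotypes did not overlap. The log2 difference was -0.55 ± 0.04 (adjusted p = 6.16e-18), and with library size alone it turned to 0.04 (adjusted p = 0.439), still below the median of all genes under that scaling. Relative to the adipocyte sum the medians of Sirt2 were 4.44 per 1000 in WT and 5.47 per 1000 in FANKO BAT, with overlap.

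Sirt7, a nuclear sirtuin linked to ribosomal RNA genes and chromatin, went the other way. It had a median of 15.4 CPM in WT BAT (13.6 to 23.5) and of 25.5 CPM in FANKO BAT (20.1 to 29.6), and 12 of 16 FANKO libraries lay above the WT range. The log2 difference was 0.62 ± 0.05 (adjusted p = 1.09e-16), past the threshold at all 4 times and under all 18 alternatives (0.56 to 1.22). Macrophage markers rose in the same libraries, 8 of 9 of them higher and 1 lower, from sums of 117.8 to 228.5 CPM in WT to 704.1 to 1667 CPM in FANKO BAT, and Sirt7 relative to that sum was at 82.1 to 149.0 per 1000 in WT and 15.4 to 32.4 in FANKO. All 6 stromal markers were higher as well (median sums of 423.2 CPM in WT and 1017 CPM in FANKO BAT). Of 6 endothelial markers 4 were lower (584.3 and 417.9 CPM). The part of cell makeup in Sirt7 levels was not tested.

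Sirt1 and Sirt6 did not pass the test. Relative to the adipocyte sum, the Sirt1 medians were 2.16 per 1000 in WT and 3.45 per 1000 in FANKO BAT. Those of Sirt6 were 0.543 and 0.875 per 1000, and the ranges of both genes overlapped. Sirt1, the deacetylase of PER2, BMAL1 and PGC-1α, had a median of 27.5 CPM in WT BAT (22.7 to 41.3) and of 24.8 CPM in FANKO BAT (20.3 to 32.8), with a log2 difference of -0.16 ± 0.06 (95% interval -0.28 to -0.04, adjusted p = 0.0125). That difference passed as lower under 4 of 18 alternatives, the FDR of 0.05 among them, and as higher with library size alone (0.42, adjusted p = 2.07e-06). Sirt6, a chromatin deacylase involved in DNA repair and glycolysis, had medians of 6.72 and 6.69 CPM and a log2 difference of -0.03 (95% interval -0.15 to 0.09, adjusted p = 0.686), a sign that changed under 6 of 18 alternatives, with library size alone to 0.56, which passed (adjusted p = 2.33e-11).

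Among the NAD glycohydrolases, Bst1 showed the greatest difference of the 10 members. WT BAT libraries held 1 to 9 Bst1 counts (0.106 to 0.551 CPM, median 0.289), whereas FANKO BAT libraries held 34 to 109 (2.27 to 6.24 CPM, median 3.92), and every FANKO library lay above every WT library. The fitted log2 difference was 3.76 ± 0.18 (adjusted p = 5.29e-27), with 3.61 to 4.35 over 18 alternatives. By time it was 4.22, 3.87, 3.41 and 3.49 at ZT6, ZT10, ZT18 and ZT22, each past the threshold. Relative to the macrophage marker sum, Bst1 was at 0.799 to 3.69 per 1000 in WT BAT (median 2.04) and 2.36 to 6.32 per 1000 in FANKO BAT (median 3.87), with overlap, and in WT and FANKO eWAT the medians were 3.55 and 3.51 per 1000. Macrophage sums in WT eWAT were 760.8 to 1101 CPM, in the range of FANKO BAT, and the part of macrophage number in it was not tested.

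Cd38, the main NAD+ hydrolase of many tissues, had a median of 9.41 CPM in WT BAT (6.98 to 14.1) and of 9.92 CPM in FANKO BAT (7.65 to 17.9). Its log2 difference of 0.18 ± 0.09 did not pass the test (95% interval 0.00067 to 0.35, adjusted p = 0.0647) and passed under 1 of 18 alternatives, library size alone (0.78, adjusted p = 1.17e-09), while all 6 B cell markers and all 6 T or NK cell markers rose. Their sums went from between 0.612 and 5.57 CPM in WT to between 10.1 and 79.9 CPM in FANKO for B cells, and from between 0.698 and 3.11 CPM to between 37.5 and 116.8 CPM for T or NK cells. Within the 16 FANKO BAT libraries Cd38 correlated with the B cell sum (Pearson r = 0.84) and the macrophage sum (0.56). Within WT BAT it did not (r = -0.01 and 0.01), a description over libraries that span 4 times. In eWAT, r with the B cell sum was 0.57 in FANKO and 0.41 in WT, and with the macrophage sum -0.16 and 0.21. Relative to the B cell sum, Cd38 was at 1806 to 18143 per 1000 in WT BAT and 224.5 to 864.1 in FANKO BAT. Relative to the macrophage sum it was at 37.4 to 109.3 and 5.92 to 13.8 per 1000, both ratios without overlap. The part of cell makeup in Cd38 levels was not tested. The highest Cd38 value of BAT, 17.9 CPM, was replicate 2 of FANKO at ZT10. Of the neutrophil markers 2 of 3 tested rose, and Ly6g and Mpo were at 0 in all WT BAT libraries.

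Sarm1 was barely detected. Libraries held 0 to 9 counts in WT BAT (median 0.363 CPM) and 4 to 18 in FANKO BAT (median 0.624 CPM), and 9 of 16 FANKO libraries lay above the WT range. Its log2 difference of 0.83 ± 0.25 passed the test (adjusted p = 0.00231) but did not pass without replicate 1 of every group (adjusted p = 0.0217), without replicate 4 (0.0288) or without the 7 libraries with most muscle marker counts (0.0101). The single library at 0 counts, WT replicate 1 at ZT22, allows up to 0.445 CPM by counting error (3 counts). Nerve and Schwann cell markers were higher in FANKO BAT for 3 of 4 genes, with sums of 6.87 to 14.5 CPM in WT and 4.96 to 22.05 CPM in FANKO.

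**Figure D3:**
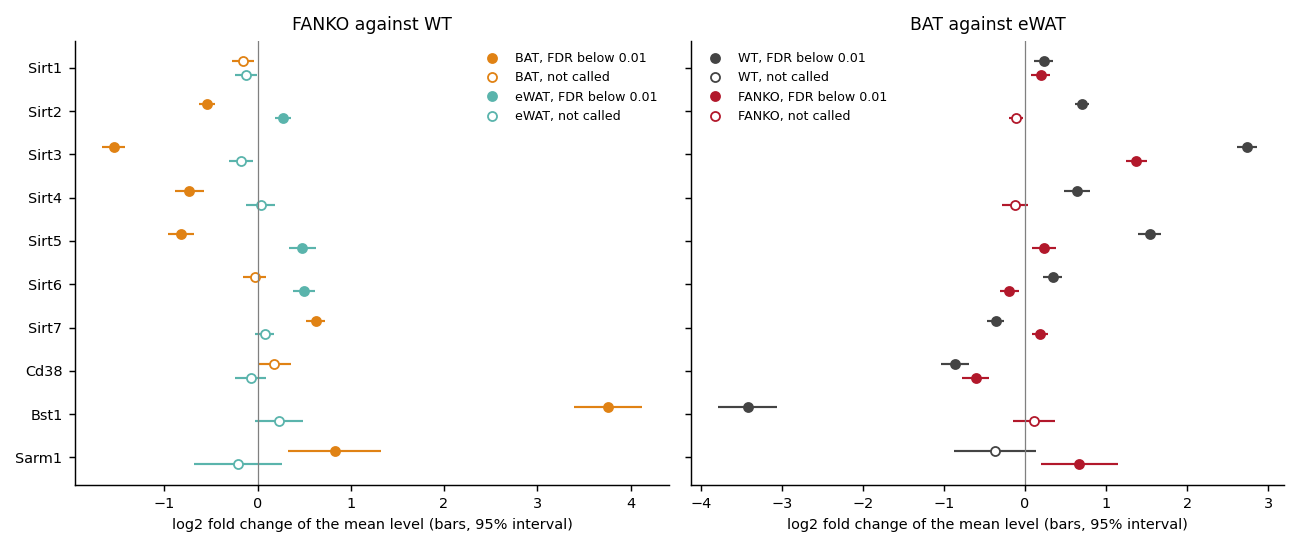
Log2 differences in mean level of each member, FANKO against WT in BAT and eWAT (left) and BAT against eWAT in WT and FANKO (right), with 95% intervals (n = 16 and 16) and filled points past a false discovery rate of 0.01. On the left, Bst1 lies at 3.76 and Sirt3 at -1.55 in BAT, and all eWAT values lie between -0.21 and 0.50, on the right Sirt3 is at 2.74 in WT and 1.37 in FANKO, and with scaling by library size alone the genotype differences of Sirt1, Sirt2 and Sirt6 in BAT and of Sirt4, Sirt7 and Bst1 in eWAT, and the WT depot differences of Sirt1, Sirt2, Sirt4 and Sirt6, change sign.

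In eWAT the differences were smaller than in BAT for all members but Sirt6, and those that passed in the main fit were all increases. Sirt2, Sirt5 and Sirt6 were higher in FANKO eWAT and no member was lower, 3 of 10 in all, against 50.3% of all genes (27.6% higher, 22.8% lower). A share of 3 in 10 higher is near the background. The median log2 difference was 0.05 over the members and -0.02 over all genes. Sirt3 passed as lower under 13 of 18 alternatives and Sirt1 under 7. The count was 5 under 6 of 18 alternatives, in each of which lower levels of both genes passed as well. With library size alone, which is among these 6, Sirt2 did not pass and Cd38 passed as lower (-0.32, adjusted p = 0.0037).

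Sirt5 rose from a median of 12.4 CPM in WT eWAT (9.44 to 13.9) to 16.7 CPM in FANKO eWAT (14.3 to 21.2), and it was the member whose genotypes did not overlap there, as was true of 5.90% of genes. Its log2 difference was 0.48 ± 0.07 (adjusted p = 7.26e-08). Sirt6 rose from 5.37 CPM (3.99 to 6.46) to 7.85 CPM (6.26 to 9.06) with 15 of 16 FANKO libraries above the WT range and a log2 difference of 0.50 ± 0.06 (adjusted p = 1.27e-10). Both stayed past the threshold under all 18 alternatives, among them library size alone, where the median gene was 0.25 lower than under TMM and 21.8% of calls were higher against 54.8%.

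Sirt2 had a median of 34.99 CPM in WT eWAT (31.99 to 43.9) and of 43.2 CPM in FANKO eWAT (38.7 to 50.5), a log2 difference of 0.27 ± 0.04 (adjusted p = 1.2e-07) that did not pass with library size alone (0.02, adjusted p = 0.65). Sirt3 was at medians of 10.7 and 9.39 CPM (log2 -0.18 ± 0.07, adjusted p = 0.0135), and passed as lower under 13 of 18 alternatives. For Sirt1 the log2 difference was -0.12 (adjusted p = 0.0698), and for Sirt4 and Sirt7 it was 0.03 and 0.08 (adjusted p = 0.726 and 0.189), both of which turned negative with library size alone. Cd38 (-0.07), Bst1 (0.22) and Sarm1 (-0.21) had adjusted p of 0.449, 0.125 and 0.44, and Bst1 also turned negative with library size alone. The members that rose did so while 5 of 6 T or NK cell markers were higher, and 5 of 9 macrophage markers higher and 1 lower. All 6 stromal markers, all 4 mesothelial markers and 5 of 6 B cell markers were lower. Of 6 brown adipocyte markers 2 were higher and 1 lower, and their sums did not overlap (12.2 to 36.7 CPM in WT, 49.0 to 106.0 in FANKO). Of 6 adipocyte markers 2 were higher and 3 lower. Macrophage sums overlapped (760.8 to 1101 CPM in WT, 716.2 to 1305 in FANKO).

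Between the depots of WT mice, 9 of 10 members differed, against 73.7% of all genes, 6 of them higher in BAT (32.7% of all genes) and 3 higher in eWAT (41.1%). Sirt3 was 6.68-fold higher in BAT by the means (71.6 ± 6.51 and 10.7 ± 1.30 CPM, log2 difference 2.74, adjusted p = 8.47e-43) and Sirt5 was 2.90-fold higher (35.4 ± 5.27 and 12.2 ± 1.14 CPM, log2 1.53, adjusted p = 1.04e-27), both without overlap of the 16 and 16 libraries. Sirt2 (log2 0.71), Sirt4 (0.64), Sirt6 (0.34) and Sirt1 (0.23) were also higher in BAT under TMM, and all of these 4 turned negative with library size alone, which put the median of all genes at -0.86 against -0.11 under TMM and the higher share of calls at 13.7% against 44.3%. The call for Sirt1 was lost without replicate 3 (adjusted p = 0.0232), without the 7 muscle-rich libraries (0.0182) and with a minimum count of 30 (0.013). Higher in eWAT were Sirt7 (log2 -0.36), Cd38 (-0.86) and Bst1 (-3.42). Bst1 stood at 0.320 ± 0.134 CPM in WT BAT and 3.34 ± 0.625 CPM in WT eWAT. Samples did not overlap for Sirt2, Sirt3, Sirt5, Cd38 and Bst1, 5 of 10, as for 27.1% of all genes. All 9 macrophage and all 6 B cell markers were higher in WT eWAT, and all 6 brown adipocyte markers in WT BAT.

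In FANKO mice the depots were closer for several of these genes. Sirt3 remained higher in BAT, at 24.5 ± 3.59 against 9.45 ± 1.19 CPM without overlap (log2 1.37, adjusted p = 2.88e-27, and 14.2% of all genes did not overlap), and Sirt5 was higher by 0.23 (adjusted p = 0.00376). Bst1 was at 4.23 ± 1.15 CPM in FANKO BAT and 3.94 ± 1.73 CPM in FANKO eWAT (log2 0.11, 95% interval -0.15 to 0.37, adjusted p = 0.471), a difference that passed without replicate 3 of every group (0.46, adjusted p = 0.00313). In all 7 of 10 members passed against 59.7% of genes, 5 higher in BAT (28.1% of genes) and 2 higher in eWAT (31.6%), but only 2 to 6 when a replicate of every group was left out and 3 with muscle and epididymis scores as covariates, and the calls of Sirt1, Sirt5, Sirt6, Sirt7 and Sarm1 were among those lost. The call of Sirt6 (log2 -0.19, adjusted p = 0.00322) was lost under 12 of 18 alternatives, among them DESeq2 (adjusted p = 0.0745), RLE scaling (0.077), library size alone (0.148) and the 7 muscle-rich libraries left out (0.0219), and that of Sarm1 was also lost without these 7 libraries. Those of Sirt3 and Cd38 (log2 -0.61, adjusted p = 5.49e-09) were kept in all 18.

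The difference between genotypes itself differed between depots for 8 of 10 members, against 64.3% of all genes, 3 with a positive sign (32.2% of genes) and 5 with a negative sign (32.1%). The interaction, that is the BAT difference minus the eWAT difference, was -1.36 for Sirt3 (adjusted p = 6.66e-21), -1.30 for Sirt5 (1.39e-17), -0.82 for Sirt2 (7.94e-19), -0.77 for Sirt4 (1.55e-08) and -0.53 for Sirt6 (1.42e-07). It was 0.55 for Sirt7 (9.93e-10), 3.53 for Bst1 (5.13e-21) and 1.04 for Sarm1 (0.0057). Sirt2 and Sirt5 had opposite signs in the 2 depots, lower in FANKO BAT and higher in FANKO eWAT, both past the test. Sirt1 (-0.04, adjusted p = 0.68) and Cd38 (0.25, adjusted p = 0.0576) did not pass. Cd38 passed under 4 of 18 alternatives, DESeq2 (0.36, adjusted p = 0.00566), RLE scaling (0.36, 0.00736), a minimum count of 30 (0.38, 0.00472) and library size alone (1.10, 5.78e-10), and Sirt1 passed with the opposite sign with library size alone (0.79, 2.93e-09). With library size alone the interactions of Sirt2, Sirt4 and Sirt6 turned positive (0.01, 0.07 and 0.31), where the median of all genes was 0.88 against 0.04 under TMM and 89.7% of calls were higher against 50.03%, and RLE scaling moved that median to 0.15. The call of Sarm1 was lost under 5 of 17 alternatives (adjusted p from 0.0112 to 0.0266), those without replicate 1, 2 or 4, without the 7 muscle-rich libraries, and with muscle and epididymis scores as covariates.

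Few members varied with time of day past the test, and for a set of 10 the counts were near the share of all genes in each condition. In WT BAT 1 of 10 members, Sirt6, passed the test for a 24 h cosine, against 13.9% of all genes, and 3 were under an unadjusted p of 0.05. Sirt6 was at 6.86, 8.50, 8.66 and 8.63 CPM at ZT6 and at 8.16, 6.55, 7.86 and 6.49 CPM at ZT10. It was at 6.06, 5.001, 6.39 and 3.93 CPM at ZT18 and at 7.12, 6.45, 6.69 and 6.75 CPM at ZT22. All 4 libraries of ZT6 lay above all 4 of ZT18, with a span between the highest and the lowest mean of 0.62 ± 0.17 on the log2 scale. The fitted cosine (adjusted p = 0.000501) peaked at 4.73 h, between ZT22 and ZT6, where no sample was taken. The call was lost without replicate 2 (adjusted p = 0.0312) or replicate 4 (0.0243) and was kept under the other 16 of 18 alternatives.

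In FANKO BAT none of 10 passed (2.84% of all genes did), with 3 under an unadjusted p of 0.05. Sirt1 was closest there (adjusted p = 0.0205). Its mean was 27.8 ± 2.27 CPM at ZT6, 28.5 ± 3.39 at ZT10, 21.4 ± 0.963 at ZT18 and 23.4 ± 2.02 at ZT22 (SD, n = 4), all 4 libraries of ZT18 lying below those of ZT6 and ZT10, and it passed in DESeq2 (adjusted p = 0.0092), without replicate 4 and without the 7 muscle-rich libraries. In WT eWAT (9.38% of genes) and FANKO eWAT (6.77%) no member passed in edgeR or DESeq2, with 1 and 2 under an unadjusted p of 0.05. Bst1 came closest in FANKO eWAT (adjusted p = 0.0337), from 5.19 ± 2.59 CPM at ZT6 to 2.81 ± 0.475 at ZT18. On the log2 scale the median span over members in BAT was 0.28 for WT and 0.30 for FANKO, beside 0.43 and 0.33 over all genes, and in eWAT it was 0.23 and 0.22, beside 0.37 and 0.35.

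No member passed the test for a rhythm that differs between genotypes, in BAT (2.76% of genes, 3 members under an unadjusted p of 0.05, the lowest adjusted p being 0.0913 for Sirt6) or in eWAT (1.15% of genes, 0 members under 0.05), nor did any in DESeq2. Tested time by time, Sirt2, Sirt3, Sirt4, Sirt5, Sirt7 and Bst1 passed between genotypes at all 4 times in BAT. That gave 6, 6, 7 and 6 of 10 members at ZT6, ZT10, ZT18 and ZT22, against 48.2%, 45.7%, 44.0% and 45.3% of genes. The additional member at ZT18 was Sirt1, whose log2 difference of -0.39 (adjusted p = 0.00498) rests on WT replicate 4 at 41.3 CPM, the others of that group being at 22.7 to 25.4 CPM. Without replicate 4 of every group the difference was -0.14 (adjusted p = 0.294), without the 7 muscle-rich libraries -0.09 (0.621), and with library size alone 0.20. In eWAT 3, 2, 1 and 2 members passed at these times, against 27.0%, 24.5%, 13.6% and 20.6% of genes.

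Over the 64 libraries, which fall into 4 conditions, each member's log2 CPM was correlated with that of the genes with a mean log2 CPM of at least 1. The genes most like Sirt3 were Acaa2 (Pearson r = 0.99) and Acadl (0.98), both enzymes of fatty acid β-oxidation, and Itpr2, an inositol trisphosphate receptor (0.98). Those most like Sirt5 were Cs, the citrate synthase (0.96), Sdr39u1 (0.96) and Ndufa8, a subunit of complex I (0.95), and those most like Sirt2 were Minos1 (0.93), Hsdl2 (0.93) and mt-Cytb (0.93), of which Minos1 belongs to the cristae organizing complex and mt-Cytb is encoded by the mitochondrial genome. For Bst1 they were the chemokine Ccl9 (0.98), Alox5ap of leukotriene synthesis (0.98) and the phosphatase Ptpro (0.97), and for Sirt7 Cdc42se1 (0.88), Serpinb9 (0.85) and Adgre1, which encodes the macrophage antigen F4/80 (0.85). Cd38 was most like Mmp11 (0.87), Gsdme (0.86) and Hjurp (0.86), and Sirt4 most like 9330159M07Rik, Wdr13 and Pomgnt1 (0.84 each). Weaker likeness was found for Sirt1 (Elf2, Rad54l2 and Nr2c2, 0.72 to 0.74), Sirt6 (Strada, Pmm1 and Fbxo6, 0.71 to 0.72) and Sarm1 (Zfpm1, Ap5b1 and Mrtfa, 0.54 to 0.56).

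Among the members themselves, Sirt3 and Sirt5 had the highest correlation (r = 0.87), followed by Sirt2 with Sirt5 (0.82) and Sirt2 with Sirt3 (0.75), and Bst1 was negatively correlated with Sirt3 (-0.83), Sirt2 (-0.81), Sirt5 (-0.79) and Sirt4 (-0.77). The 64 libraries are not independent points, since they share 4 conditions. Within conditions, Sirt3 correlated with the summed adipocyte markers at r = 0.64 in FANKO BAT (n = 16) and 0.01 in WT BAT, and with the summed brown adipocyte markers at 0.63 and 0.49. Sirt5 correlated with the adipocyte sum at 0.74 and -0.46, and Sirt2 at 0.75 and 0.48. Sirt7 correlated with the macrophage sum at 0.47 in FANKO BAT, 0.57 in WT BAT, -0.36 in FANKO eWAT and 0.02 in WT eWAT. For Bst1 and the macrophage sum, r was 0.38 in FANKO BAT, 0.61 in WT BAT, 0.90 in FANKO eWAT and 0.46 in WT eWAT. With the B cell sum it was 0.15, -0.12, 0.0039 and 0.58 in the same order. The WT BAT values of Bst1 rest on 1 to 9 counts per library.

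**Figure D4:**
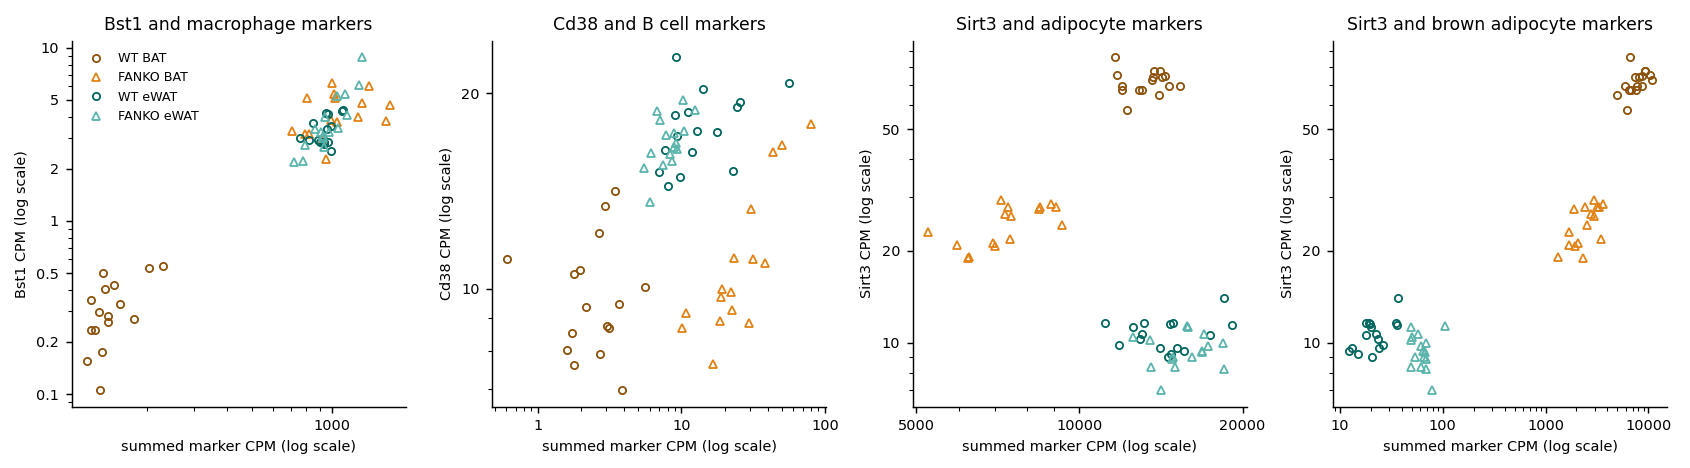
Levels of Bst1, Cd38 and Sirt3 (CPM) against the summed CPM of macrophage, B cell, adipocyte and brown adipocyte markers in the same library, with a point per library in the 4 conditions, on log axes. Within the 16 FANKO BAT libraries Sirt3 correlates with the adipocyte sum at r = 0.64 (0.01 in WT BAT). With the brown adipocyte sum it is 0.63 (0.49 in WT BAT, -0.10 in FANKO eWAT and 0.59 in WT eWAT). Cd38 correlates with the B cell sum at 0.84 in FANKO BAT, -0.01 in WT BAT, 0.57 in FANKO eWAT and 0.41 in WT eWAT. For Bst1 and the macrophage sum r lies between 0.38 in FANKO BAT and 0.90 in FANKO eWAT.

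Other genes of NAD+ metabolism were counted from lists, to be read beside all genes tested, of which 33.1% were higher and 33.9% lower in FANKO BAT and 27.6% higher and 22.8% lower in FANKO eWAT. Of 14 tested genes of NAD+ synthesis and nicotinamide clearance, 3 were higher and 11 lower in FANKO BAT, with Nampt (log2 -2.31) and Naprt, which starts synthesis from nicotinic acid (-1.78), having the smallest p, as do the pair named first for each list and depot here. In FANKO eWAT 6 were higher and 5 lower, led by Nnmt, which methylates nicotinamide (-2.02), and Slc25a51, the mitochondrial NAD+ carrier (0.53). Of 19 tested ADP-ribosyltransferases, the other large group of NAD+ consumers, 10 were higher and 5 lower in FANKO BAT, led by Parp14 (3.26) and Parp11 (2.63), and 10 higher and 2 lower in FANKO eWAT, led by Parp1 (0.59) and Art3 (-0.72).

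Of 13 channels and hydrolases that act on ADP-ribose, cyclic ADP-ribose or NAADP, products of CD38 and BST1, 3 were higher and 7 lower in FANKO BAT, the smallest p belonging to the calcium channels Tpcn2 (1.87) and Trpm2 (3.68), both higher. In FANKO eWAT 5 were higher and 2 lower, led by Adprh (0.43) and Nudt9 (0.36). Of 19 regulators and substrates of sirtuins, 3 were higher and 11 lower in FANKO BAT, led by the mitochondrial SIRT3 substrates Acss1 (-2.70) and Idh2 (-2.27), and 7 higher and 4 lower in FANKO eWAT, led by Foxo1 (-0.92) and Sod2 (0.59). The median log2 differences of the 4 lists were -0.65, 0.43, -0.16 and -0.72 in BAT and 0.06, 0.20, 0.16 and 0.13 in eWAT, beside 9.7e-05 and -0.02 over all genes.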

How the data were processed

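RNA-seq libraries of BAT and eWAT from WT and FANKO mice at ZT6, ZT10, ZT18 and ZT22 were analysed from the deposited table of read counts per gene (64 libraries, 16 groups of 4). The authors made the counts from rRNA-depleted, stranded, paired-end libraries. The submitters' processing notes name FastQC 0.11.5, MultiQC 1.2, STAR 2.5.3a, featureCounts 1.5.3 and GRCm38.p5, and the strand and multimapping options of the counting are not given in the sources used here. Symbols, positions and exon lengths came from GENCODE M21 (52489 of 52636 identifiers matched), and promoters from RefSeq.

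Totals per library were 6117343 to 30544847 counts, and the interval and floor for a count of 0 (3 counts) cover counting error only. The labels do not state that samples of a group came from separate mice, so p-values measure the spread between these samples. Counts were analysed in R 4.3.3 with edgeR 4.0.16: genes passed filterByExpr (minimum count 10, minimum total 15), libraries were scaled by TMM, and 1 quasi-likelihood model on all 64 libraries held a mean, a cosine and a sine (24 h) for each depot and genotype (12 coefficients). Mean levels, rhythms and their differences were tested as contrasts, time points in a model of 16 group means, with Benjamini-Hochberg adjustment over 20249 genes and a threshold of 0.01. SEs of log2 differences were derived from the F statistic, and 95% intervals from these with 52 degrees of freedom. CPM used TMM-scaled library sizes, log2 CPM a prior count of 2, and CPM per kb the merged exon length. The span over the day is the highest minus the lowest time-point mean of log2 CPM, with an SE from the SEs of these 2 means.

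Named genes were the 10 members, Nampt, the 2 genes of each pathway list with the smallest p in each depot, and the 3 genes most correlated with each member among those with a mean log2 CPM of at least 1. The members and lists were chosen with earlier results of these data known. Alternatives were DESeq2 1.42.0, limma-voom (limma 3.58.1), RLE scaling, library size alone, mitochondrial genes removed, other filters, a fit per depot, FDR 0.05, time as a factor, replicate blocks, marker scores as covariates and each replicate left out. Leaving out 7 BAT libraries with most muscle markers and 3 with the highest mitochondrial share was chosen after seeing the data. Scripts were tested on simulated data.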

Additional observations from a re-analysis of the deposited data

Results flagged for a closer look

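For 8 members the difference between FANKO and WT differed between the depots by the interaction test in edgeR. The BAT difference minus the eWAT difference on the log2 scale was -1.36 for Sirt3, -1.30 for Sirt5, -0.82 for Sirt2, -0.77 for Sirt4 and -0.53 for Sirt6, and 0.55 for Sirt7, 3.53 for Bst1 and 1.04 for Sarm1.

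A single library stood apart from the other 3 of its group in 13 of 160 groups of 4, where chance flags about 1 in 20, or 8 groups. In WT BAT at ZT18, replicate 4 had 41.3 CPM of Sirt1 (others 22.7 to 25.4) and 19.7 CPM of Sirt5 (others 33.8 to 36.6), and it also had the highest muscle marker sum of BAT, 431.6 CPM. In WT BAT at ZT22, replicate 2 had 25.8 CPM of Sirt1 and replicate 1 had 0 CPM of Sarm1. At ZT6, replicate 1 of WT BAT had 6.86 CPM of Sirt6 and replicate 3 of FANKO BAT 5.54 CPM. At ZT10 of FANKO BAT, replicate 2 had 17.9 CPM of Cd38 (others 7.65 to 9.27) and replicate 1 had 3.19 CPM of Bst1. In WT eWAT, replicate 4 at ZT22 had 40.9 CPM of Sirt2 and 4.38 CPM of Bst1, replicate 3 at ZT6 had 4.02 CPM of Sirt4 and replicate 4 at ZT10 had 13.9 CPM of Sirt5. In FANKO eWAT, replicate 1 at ZT22 had 6.72 CPM of Sirt6.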

How the results depend on the processing

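Over the alternatives run, the differences of Sirt3, Sirt5, Sirt7 and Bst1 between genotypes in BAT, and their interactions with depot, kept direction and side of the threshold, and so did the eWAT differences of Sirt5 and Sirt6. The number of members past the test in eWAT was 3 and became 5 with DESeq2, RLE scaling, library size alone, a minimum count of 30, a fit per depot and the 7 muscle-rich libraries left out. In FANKO mice the depots differed for 7 members and for 3 with muscle and epididymis scores as covariates. Rhythm calls were 1 in WT BAT and 2 at FDR 0.05, 0 in FANKO BAT and 1 with DESeq2, at FDR 0.05 and without the 7 muscle-rich libraries, and 0 in FANKO eWAT and 1 at FDR 0.05. With 1 replicate of every group left out, the members called were 6 to 8 in BAT, 3 to 4 in eWAT, 8 to 9 between WT depots, 2 to 6 between FANKO depots and 7 to 8 for the interaction, 0 to 1 for rhythm in WT BAT and in FANKO BAT, and 23 to 29 (of 33) over time points. The time point calls were 23 with library size alone and the pathway list calls 87 (94 with TMM).

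Library size alone reversed the sign of several differences. In BAT they became 0.42 for Sirt1, 0.038 for Sirt2 and 0.56 for Sirt6, and in eWAT -0.21 for Sirt4, -0.17 for Sirt7 and -0.024 for Bst1. Between WT depots they became -0.51 for Sirt1, -0.044 for Sirt2, -0.11 for Sirt4 and -0.41 for Sirt6, the interaction became 0.79 for Sirt1, 0.014 for Sirt2, 0.066 for Sirt4 and 0.31 for Sirt6, and Sirt1 at ZT18 in BAT became 0.20. Reversals elsewhere were in differences that did not pass the main test. For Sirt6 in BAT they were 0.021 with DESeq2, 0.017 with RLE scaling, 0.019 with a minimum count of 30 and 0.0098 with a fit per depot, and from -0.067 to 0.057 with a replicate left out. For Sirt4 in eWAT they were -0.025 with DESeq2, -0.024 with RLE scaling, -0.0053 without a filter, -0.039 with a minimum count of 30, -0.0036 with a fit per depot, -0.0033 without the 7 muscle-rich libraries and -0.0073 without the 3 of high mitochondrial share, and from -0.028 to 0.056 with a replicate left out. With a replicate left out Bst1 ranged from -0.092 to 0.39 in eWAT and from -0.037 to 0.46 between FANKO depots, the highest value of the latter passing the test without replicate 3 (adjusted p = 0.00313). The interaction of Sirt1 was 0.064 with DESeq2, 0.066 with RLE scaling, 0.083 with a minimum count of 30 and 0.094 without the 7 muscle-rich libraries, and from -0.055 to 0.081 with a replicate left out. The cause was not tested.

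The labels do not say whether equal replicate numbers mark 1 mouse or batch, and the numbers were not treated as pairs because the deviations of same-numbered libraries did not all correlate above 0.1 (10 of 32 across depots, 3 of 16 between genotypes in BAT and 3 of 16 in eWAT did). As a hint from the data and not the design, 18 of 32 libraries across depots, 10 of 16 in BAT and 5 of 16 in eWAT correlated best with their own number out of 4, and across depots the median correlation was 0.053 for equal and -0.017 for other numbers. Across depots and in BAT this is more often than 1 in 4, and the main tests treated all libraries as independent. With the replicate block the members called were 7 in BAT and 4 in eWAT, where Sirt3 was gained, and 6 between FANKO depots, where Sarm1 was lost. With the number as a block by animal they were 9 between WT depots, 7 between FANKO depots and 8 for the interaction. Over all genes, rhythm calls ranged from 1680 to 4470 in WT BAT (2807), 168 to 1396 in FANKO BAT (575), 768 to 3439 in WT eWAT (1899) and 633 to 2506 in FANKO eWAT (1370), and rhythm differences from 183 to 1205 in BAT (559) and 31 to 613 in eWAT (232). Sarm1, with 0 to 21 counts per library, was not in the fit with a minimum count of 30, and depth limits Sarm1 and, in WT BAT, Bst1.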
